A study of Mus musculus with 8 samples.

Results

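The adhesion molecules described here are 8 genes, Icam1, Icam2, Vcam1, Pecam1, Cd44, Selplg, Alcam and F11r, that encode cell surface proteins by which leukocytes and vessel wall cells hold on to each other. They were found by their Ensembl identifiers through GENCODE vM21 symbols, and they are 8 of the 52636 genes in the deposited count table. All 8 passed the filter on low counts and are among the 13847 genes tested. RNA was sequenced from primary microglia of wild-type (WT) C57BL/6 mice, for which the study's methods name C57BL/6N pups, that had been treated for 24 h with 5 µg/ml LPS, the bacterial lipopolysaccharide sensed by Toll-like receptor 4, or with vehicle, with 4 libraries per group. Both groups were grown in serum-containing medium with recombinant CSF-1, the growth factor on which cultured microglia depend. According to the study's methods the cells were shaken off mixed glial cultures of neonatal brains, in which microglia sit loosely on a layer of astrocytes. The labels call the libraries biological replicates without saying whether each came from its own culture or litter, so the p-values measure the spread between these libraries, which may be technical.

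Adhesion of leukocytes proceeds in steps. Selectins catch glycosylated ligands such as PSGL-1, the product of Selplg, and slow the cell, after which activated integrins bind immunoglobulin-superfamily ligands such as ICAM-1, ICAM-2 and VCAM-1. PECAM-1 and JAM-A, the product of F11r, sit at contacts between cells and take part in passage between them, while CD44 is the main cell surface receptor for hyaluronan and ALCAM binds CD6 or another ALCAM. Microglia carry several of these proteins themselves, and CD44, PSGL-1 and PECAM-1 are found on many myeloid cells.

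After LPS 4 of the 8 genes rose (Pecam1, F11r, Vcam1 and Alcam), 1 fell (Icam2) and 3 did not pass the test (Icam1, Cd44 and Selplg). The rises spanned from 2.12-fold for Alcam to 20.2-fold for Pecam1. Calls were made with the quasi-likelihood test of edgeR at a Benjamini-Hochberg adjusted p under 0.05 over all tested genes, and all adjusted p-values given are from that test. Over all tested genes 64.1% were called, 30.3% higher and 33.8% lower, so the 62.5% of the adhesion molecules that were called is close to the background. The median log2 fold change of the 8 was 0.70, against -0.11 over all tested genes. Levels are given as counts per 1000000 (CPM) with library sizes scaled by the TMM method, and fold changes compare LPS with vehicle.

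Library totals ran from 20071921 to 30604447 counts. The TMM scaling factors were between 1.21 and 1.32 in vehicle and between 0.701 and 0.833 in LPS, without overlap, so the choice of scaling moves every fold change the same way. With library totals in place of TMM, an alternative chosen after seeing the data, the median over all genes fell by 0.68 on the log2 scale. The log2 fold changes were then 3.64 for Pecam1, 2.47 for F11r, 1.44 for Vcam1 and -1.81 for Icam2, all still called. All 14 microglial markers were above the floor of 3 counts in at least 1 library, and their summed level was 12780 to 16380 CPM in vehicle and 2609 to 3162 CPM in LPS, with 12 of the 14 lower. RNA of whole cultures was measured, so fewer cells that express a gene and less RNA per cell cannot be told apart.

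Promoter sequence is shown for the members whose RefSeq start could be read in GRCm38.p6, because they include a gene that rose steeply (F11r) and others that did not pass the test (Icam1 and Cd44). Of the 8 members 4 were in the RefSeq promoter table, namely Icam1, Cd44, Alcam and F11r. Icam2, Vcam1, Pecam1 and Selplg had no entry. The windows are the 250 bases before the start, read 5′ to 3′ on the gene's strand, at chr9:21015690-21015939 on the plus strand for Icam1, chr2:102901666-102901915 on the minus strand for Cd44 and chr1:171437311-171437534 on the plus strand for F11r. For F11r the last 26 bases were left out since GENCODE places them inside the gene, and the far end of its window overlaps an exon of Gm26641, a lincRNA on the opposite strand. The window of Alcam, chr16:52453082-52453331 on the minus strand, lies wholly inside the gene as GENCODE places it and is not printed. Capitals mark every match to 1 of 7 motifs searched on both strands.
Icam1: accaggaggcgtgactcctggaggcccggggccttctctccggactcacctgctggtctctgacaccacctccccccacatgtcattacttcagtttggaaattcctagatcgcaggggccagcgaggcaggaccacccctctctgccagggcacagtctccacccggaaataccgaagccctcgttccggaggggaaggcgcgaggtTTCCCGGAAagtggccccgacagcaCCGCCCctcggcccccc
Cd44: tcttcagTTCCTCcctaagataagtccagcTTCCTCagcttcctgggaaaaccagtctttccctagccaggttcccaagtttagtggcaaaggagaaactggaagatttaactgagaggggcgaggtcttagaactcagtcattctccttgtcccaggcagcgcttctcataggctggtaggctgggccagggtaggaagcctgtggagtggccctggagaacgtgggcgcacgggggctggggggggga
F11r: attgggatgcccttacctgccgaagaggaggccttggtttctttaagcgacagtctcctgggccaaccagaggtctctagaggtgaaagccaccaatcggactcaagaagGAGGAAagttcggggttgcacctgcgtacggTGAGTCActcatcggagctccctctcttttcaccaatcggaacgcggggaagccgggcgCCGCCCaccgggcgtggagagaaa
The motifs were the NF-kB consensus, the ISRE consensus bound by interferon regulatory factors, the STAT-type palindrome TTCNNNGAA, the AP-1 type TGANTCA, the PU.1-type GAGGAA, the GC box GGGCGG and the TATA box TATAAA. The Icam1 window held TTCCCGGAA, a match to TTCNNNGAA on both strands, at 42 to 34 bases before the start, and such a match stood in 7.02% of 32851 promoter windows of the same length. Its other match was GGGCGG on the minus strand, a motif in 32.7% of windows. The F11r window held TGAGTCA, a match to TGANTCA on both strands, at 109 to 103 bases before the start, and 6.75% of windows held one. F11r also held GAGGAA once (23.3% of windows) and GGGCGG once, Cd44 held GAGGAA on the minus strand at 2 places, and Alcam held GAGGAA once and GGGCGG at 2 places. None of the 4 windows held the NF-kB consensus (3.9% of windows), the ISRE consensus (2.98%) or TATAAA (12.4%). A match is a run of letters and not a shown site of binding. No match says only that this exact form of the motif is not in the window, and looser forms, such as sites that differ from the consensus by a letter, were not searched. Such a form of the NF-kB consensus, tggaaattcc, stands unmarked in the printed Icam1 window. How often such forms occur in other windows was not computed.

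Icam1 (ENSMUSG00000037405, chromosome 9, 21015985 to 21028817, plus strand, GRCm38) encodes ICAM-1, which binds the β2 integrins LFA-1 and Mac-1. Its level was 103, 70.7, 105 and 64.0 CPM in vehicle replicates 1 to 4 and 81.5, 128, 84.8 and 132 CPM in LPS replicates 1 to 4. In each group there was a pair of higher and a pair of lower libraries, and the groups overlapped. The means were 85.5 ± 21.2 CPM (SD, n = 4) in vehicle and 107 ± 27.3 CPM (SD, n = 4) in LPS, a log2 fold change of 0.32 (SE 0.22, adjusted p = 0.227) with a 95% interval from -0.17 to 0.81. Under library totals the value reversed to -0.34 (adjusted p = 0.194), where the median of all genes was -0.79. Libraries of the same replicate number differed by -0.34, 0.86, -0.30 and 1.05 on the log2 scale, so LPS was lower in numbers 1 and 3 and higher in numbers 2 and 4. Gm47079 on the opposite strand covers 11.7% of the exonic bases of Icam1, and the strand setting of the counting is not stated, but Gm47079 held at most 2 counts in any library.

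Icam2 (ENSMUSG00000001029, chromosome 11, 106377656 to 106388075, minus strand) encodes ICAM-2, an LFA-1 ligand of endothelial cells and platelets. Its level was 2.56, 4.84, 4.19 and 3.41 CPM in the vehicle libraries and 2.15, 1.47, 1.45 and 1.73 CPM in the LPS libraries. Every LPS library lay below every vehicle library, although LPS replicate 1 came close to vehicle replicate 1. Icam2 fell by 1.14 on the log2 scale (SE 0.26, adjusted p = 0.00379), from 3.75 ± 0.988 to 1.70 ± 0.329 CPM (SD, n = 4 each). The counts behind these values were 73 to 140 reads in vehicle and 27 to 36 reads in LPS.

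Vcam1 (ENSMUSG00000027962, chromosome 3, 116109949 to 116129688, minus strand) encodes VCAM-1, the ligand of the integrin VLA-4 and a classical cytokine-induced gene of endothelium. Its level was 1.65, 2.08, 1.21 and 1.81 CPM in vehicle and 7.30, 9.31, 5.27 and 7.30 CPM in LPS. The lowest LPS library was above the highest vehicle library, and the rise was nearly the same in each numbered pair, from 1.96 to 2.12 on the log2 scale. Vcam1 rose 4.32-fold, from 1.68 ± 0.365 to 7.30 ± 1.65 CPM (SD, n = 4 each), a log2 fold change of 2.11 (SE 0.24, adjusted p = 5.06e-05). It stayed a gene of few reads, with 38 to 60 counts per vehicle library and 113 to 171 per LPS library.

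Pecam1 (ENSMUSG00000020717, chromosome 11, 106654217 to 106750628, minus strand) encodes PECAM-1 (CD31), an immunoglobulin-superfamily protein that binds itself across cell contacts and carries inhibitory signalling motifs. Its level was 5.43, 2.21, 1.71 and 1.03 CPM in vehicle and 31.7, 58.3, 68.7 and 50.5 CPM in LPS. Vehicle replicate 1 was the highest of its group and LPS replicate 1 the lowest of its group, yet the groups stood far apart. The mean went from 2.60 ± 1.95 to 52.3 ± 15.6 CPM (SD, n = 4 each), the steepest rise among the 8 genes, at a log2 fold change of 4.33 (SE 0.47, adjusted p = 3.7e-05, 95% interval 3.27 to 5.397). Without vehicle replicate 1 the log2 fold change was 5.00. The rise was 2.53 in pair 1 and between 4.67 and 5.51 in the other three numbered pairs.

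F11r (ENSMUSG00000038235, chromosome 1, 171437535 to 171464603, plus strand) encodes JAM-A, a junctional adhesion molecule that binds itself and LFA-1. Its level was 15.4, 16.4, 16.2 and 14.7 CPM in vehicle and 143, 125, 183 and 112 CPM in LPS. The vehicle libraries were almost equal, and all LPS libraries were far above them. F11r rose 8.97-fold, from 15.7 ± 0.768 to 141 ± 31.0 CPM (SD, n = 4 each), a log2 fold change of 3.17 (SE 0.16, adjusted p = 4.01e-07), the smallest adjusted p among the 8 genes. The numbered pairs rose by 2.92 to 3.49.

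Alcam (ENSMUSG00000022636, chromosome 16, 52248996 to 52454074, minus strand) encodes ALCAM (CD166), known for its binding to CD6 on T cells. Its level was 164, 147, 126 and 155 CPM in vehicle and 301, 253, 429 and 270 CPM in LPS. The groups did not overlap, and LPS replicate 3 was the highest library while vehicle replicate 3 was the lowest. The mean went from 148 ± 16.5 to 313 ± 79.7 CPM (SD, n = 4 each), a log2 fold change of 1.08 (SE 0.18, adjusted p = 0.000482). Under library totals Alcam was still called, at a log2 fold change of 0.38 (adjusted p = 0.0385).

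Cd44 (ENSMUSG00000005087, chromosome 2, 102811141 to 102901665, minus strand) encodes the hyaluronan receptor CD44, which also takes part in rolling and in binding osteopontin. Its level was 378, 296, 273 and 293 CPM in vehicle and 276, 296, 301 and 288 CPM in LPS. Apart from vehicle replicate 1 all libraries lay within a narrow band, and the groups overlapped. The log2 fold change was -0.09 (SE 0.12, adjusted p = 0.518) with a 95% interval from -0.37 to 0.18, the narrowest interval among the 3 genes that did not pass. Its sign and call depended on the libraries and the scaling, as it was 0.05 without vehicle replicate 1 and, under library totals, -0.77 and called lower (adjusted p = 3.35e-04), close to the median of -0.79 over all genes in that fit. The table sums all transcripts of a gene, so the variant exons of CD44 could not be followed.

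Selplg (ENSMUSG00000048163, chromosome 5, 113818536 to 113832644, minus strand) encodes PSGL-1, the main ligand of P-selectin. Its level was 70.01, 71.5, 133 and 66.3 CPM in vehicle and 51.8, 79.8, 66.0 and 81.7 CPM in LPS. Vehicle replicate 3 stood alone at the top, and the other seven libraries overlapped. The log2 fold change was -0.29 (SE 0.24, adjusted p = 0.319) with a 95% interval from -0.83 to 0.26. It was 0.07 without vehicle replicate 3, and under library totals it was -0.95 and called lower (adjusted p = 0.00469).

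**Figure D1:**
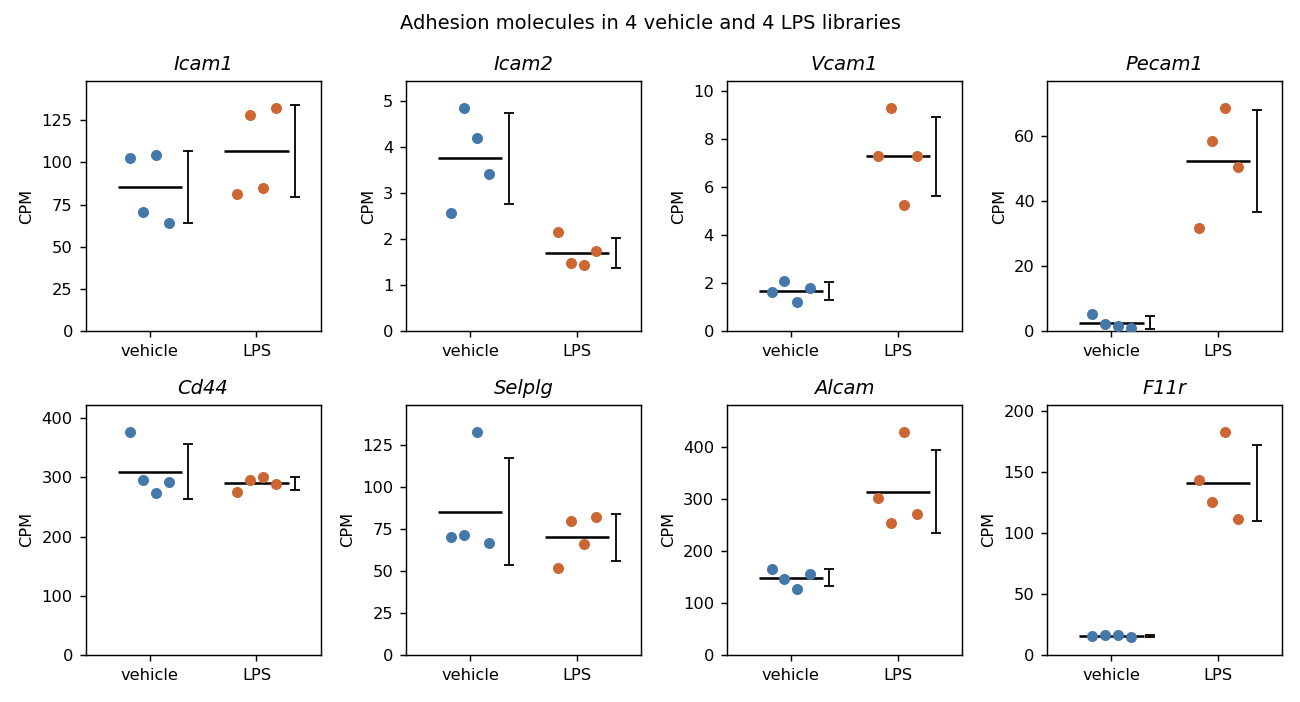
Level of each adhesion molecule in CPM (linear axes from 0) in the 4 vehicle and 4 LPS libraries, points left to right being replicates 1 to 4, with the group mean as a line and the SD as a bar. The groups do not overlap for Icam2, Vcam1, Pecam1, Alcam and F11r, and they overlap for Icam1, Cd44 and Selplg.

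**Figure D2:**
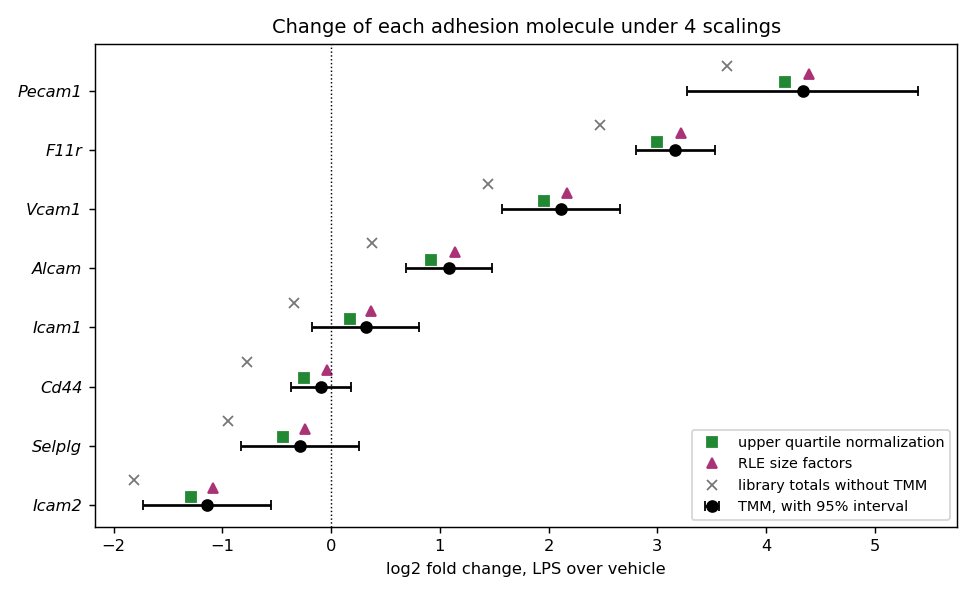
Log2 fold change of each gene, LPS over vehicle, with the 95% interval of the edgeR fit (circles) and the value under upper quartile scaling, RLE size factors and library totals. The crosses for library totals lie to the left of the circles for all 8 genes, and that of Icam1 lies on the other side of 0, at -0.34.

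The groups did not overlap for 5 of the 8 genes, against 60.2% of all tested genes (28.7% higher and 31.5% lower in LPS). Ratios between 2 members within a library do not depend on the scaling between libraries, so the 28 pairs were compared by a two-sided exact permutation test over the 70 divisions of the libraries, whose smallest possible p is 0.0286. In 19 pairs the ratio differed between groups at an adjusted p of 0.0421. Such a p is reached only where the ratios of the groups do not overlap, so the lack of overlap is not a second result. The share over pairs of other genes was not computed, so this count is not shown to be particular to the members. The permutation test ignores the replicate numbers. Exact sign flips over the 4 numbered pairs called 0 of the 28, since with 4 pairs p cannot go below 0.125 (0.167 adjusted). Pecam1 rose relative to Icam2 by 5.57 on the log2 scale, and the ratio of Icam1 to Pecam1 fell by 4.17. F11r rose relative to Cd44, whose ratio to F11r fell by 3.22, and the ratio of Cd44 to Alcam fell by 1.14. The ratio of Vcam1 to Pecam1 fell by 2.43 and that of Vcam1 to F11r fell by 1.08.

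The 9 other pairs did not reach the threshold. Pecam1 against F11r moved by 1.36 (adjusted p = 0.0667, exact permutation test), Vcam1 against Alcam by 1.00 (0.0667), and Icam1 against Icam2 by 1.398 (0.0667). The smallest change was that of Cd44 against Selplg, at 0.16 (adjusted p = 0.743). The falls of Icam2 relative to Cd44 (-0.998, adjusted p = 0.0667) and to Selplg (-0.84, 0.096) did not reach the threshold of this test, although Icam2 was the member called lower by edgeR.

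**Figure D3:**
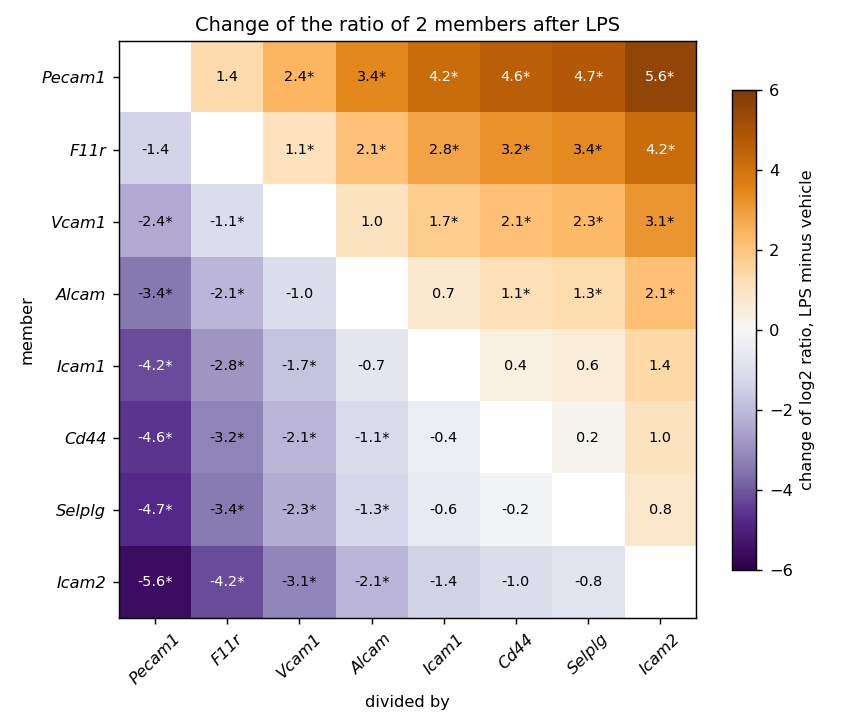
Change of the log2 ratio of the row gene to the column gene, LPS minus vehicle, for the 28 pairs, shown on both sides of the diagonal with opposite sign, and an asterisk where the exact permutation test gave an adjusted p of 0.0421. The last column shows Pecam1, F11r, Vcam1 and Alcam rising relative to Icam2, with the largest value of 5.57 for Pecam1.

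Divided by the length of merged exons, so that genes can be set side by side, the order of levels in vehicle was Cd44 (45.7 ± 6.83 CPM per kilobase, SD, n = 4), Alcam (20.8 ± 2.31), Selplg (19.9 ± 7.45), Icam1 (19.6 ± 4.86), F11r (5.89 ± 0.288), Icam2 (1.97 ± 0.519), Pecam1 (0.417 ± 0.313) and Vcam1 (0.190 ± 0.0412). Alcam, Selplg and Icam1 could not be ordered, since neighbours among them overlapped, nor could Pecam1 and Vcam1. In LPS F11r (52.8 ± 11.7 CPM per kilobase), Alcam (44.0 ± 11.2) and Cd44 (42.8 ± 1.601) stood first, with F11r overlapping Alcam and Alcam overlapping Cd44. Icam1 (24.5 ± 6.25) and Selplg (16.3 ± 3.26) followed and overlapped, then Pecam1 (8.40 ± 2.51) without overlap on either side. Icam2 (0.893 ± 0.173) and Vcam1 (0.823 ± 0.186) came last and overlapped. With merged exons F11r thus went from the fifth place to a first group that it shared with Alcam and Cd44. With the length of the longest transcript the vehicle order kept 5 of the 8 ranks and the LPS order 6, where Vcam1 (1.79 ± 0.404) and Icam2 (1.33 ± 0.257) changed places and still overlapped. In vehicle Cd44 (lowest library 48.7) then overlapped Selplg (highest 57.4). In LPS Cd44 (lowest 49.1) overlapped Icam1 (highest 52.2), so the first group did not stand apart. The longest transcripts of Vcam1 and Selplg are retained-intron models. Merged exons include such models too, and for Vcam1 span 8870 bases against 3469 in its longest coding transcript. For Selplg these lengths were 4272 and 1855, and for Icam1 4360 and 2535, so both orders depend on the models.

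**Figure D4:**
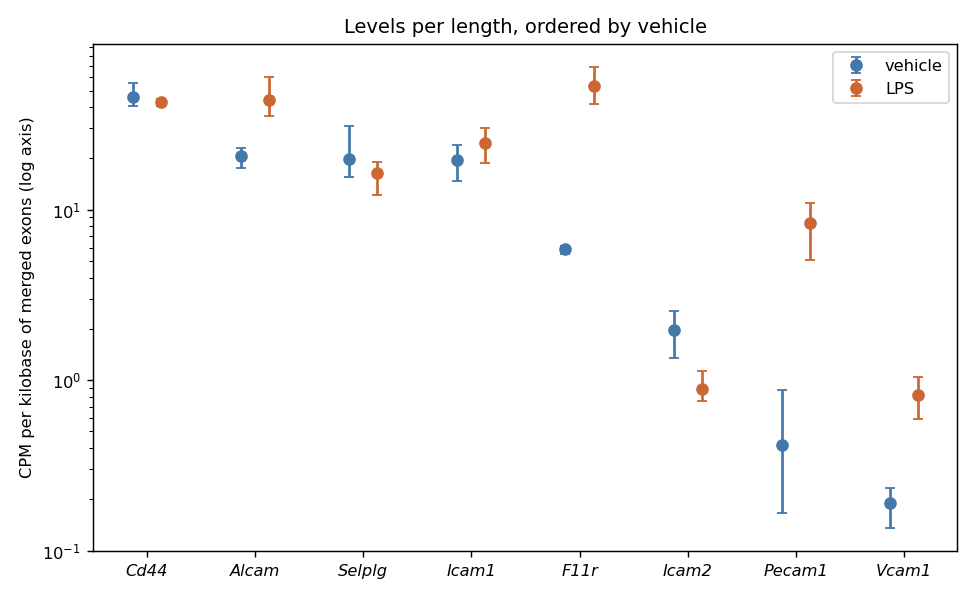
Level of each gene in CPM per kilobase of merged exons on a log axis, ordered by the vehicle mean, with the mean as a point and a bar from the lowest to the highest of the 4 libraries. F11r and Pecam1 shift upward in LPS, while Cd44 stays at 45.7 and 42.8.

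Markers of other cells were read beside these results. Of 15 endothelial markers 9 had at most 3 counts in every library, and Cldn5, Emcn, Sox17 and Robo4 had 0 in all 8. The summed endothelial level was 40.9 to 86.3 CPM in vehicle and 134 to 220 CPM in LPS, most of it from Flt1 (48.6 and 165 CPM), a VEGF receptor, and Cdh5, the VE-cadherin gene, rose from 0.948 to 7.504 CPM (log2 fold change 2.98, adjusted p = 1.37e-05). Kdr, another VEGF receptor, was at 12.3 and 20.7 CPM (log2 fold change 0.75, adjusted p = 0.11, or 0.00335 with the replicate block). Vwf (von Willebrand factor) was at 5.56 and 4.05 CPM (log2 fold change -0.45, adjusted p = 0.31), and Egfl7 had 4 to 25 counts in vehicle and 1 to 3 in LPS and was not tested. The part of these genes in the results for Pecam1, Vcam1 and Icam2 was not tested. Astrocyte markers summed to 21.1 to 52.5 CPM in vehicle and 42.5 to 125 CPM in LPS, with only Gja1 called higher and Gfap among the 3 called lower. Mural markers summed to 13.6 to 30.9 CPM in vehicle and 3.38 to 7.78 CPM in LPS with 6 of 10 at the floor, fibroblast markers to 6.57 to 19.3 and 10.1 to 24.9 CPM with Dcn the 1 called higher, and neuronal markers to 14.8 to 50.6 and 5.27 to 22.9 CPM. Lymphocyte markers reached at most 2.56 CPM with 8 of 10 at the floor, and oligodendrocyte lineage markers summed to 216 to 282 and 191 to 263 CPM. That similar sum joins opposite changes, as Cnp was called higher (mean 88.6 to 195 CPM) and Mbp (84.0 to 15.3 CPM), Olig1 and Olig2 lower. Neutrophil markers went from 77.6 to 109 CPM up to 779 to 1397 CPM, nearly all of it from S100a8 and Csf3r. Camp had 0 to 3 counts in vehicle and 6 to 50 in LPS and was not tested. S100a9, Mpo and Retnlg had 0 counts in all libraries, although S100a8 had 10570 to 19604 per LPS library. Whether a count of 0 reflects absent RNA or the counting was not tested. Perivascular macrophage markers summed to 1481 to 2740 CPM in vehicle and 2810 to 4058 CPM in LPS. That sum joins opposite changes, as 2 were called higher (Siglec1 and Cbr2) and 3 lower (Mrc1, F13a1 and Pf4). Siglec1 went from a mean of 601 to 2552 CPM and Mrc1 from 650.5 to 38.9 CPM.

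Genes that bind the 8 proteins moved in both directions. Of 23 binding partners 18 were tested, 10 rose and 5 fell, with a median log2 fold change of 1.06. That is 83.3% called, against 64.1% of all tested genes. Some genes that rose passed the filter on low counts only through the LPS libraries, among them Selp (0 counts in every vehicle library) and Itgb7 (1 to 9). Their calls are not independent of that filter, so the share is a description only. Cd38, whose product binds PECAM-1, rose from 46.0 ± 23.6 to 754 ± 142 CPM (log2 fold change 4.04, SE 0.36, adjusted p = 1.07e-05). Fn1 (fibronectin, a ligand of VLA-4) fell by 4.03 on the log2 scale (adjusted p = 0.00222), with vehicle replicate 1 at 1127 CPM against 197 to 324 CPM in the other vehicle libraries. Itgb3 (integrin β3, whose αvβ3 dimer binds PECAM-1) fell by 3.61 (adjusted p = 2.34e-05). Itgad (integrin αD) had 0 counts in every library, and Cd177, a PECAM-1 ligand of neutrophils, had at most 1.

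The integrin subunits that receive ICAM-1 and VCAM-1 are given next, chosen after their values were seen. Itgal and Itgb2, which form LFA-1, rose by 2.00 (202 ± 62.7 to 810 ± 67.3 CPM, adjusted p = 3.16e-05) and by 1.55 (432 ± 138 to 1268 ± 182 CPM, adjusted p = 0.000205). Itgam, the αM chain of Mac-1, rose by 1.94 (adjusted p = 1.33e-05), but the same-strand gene Gm49368 covers 68.7% of its exonic bases, so its counts are uncertain. Itga4, the α4 chain of VLA-4, fell by 2.25 (214 ± 44.4 to 45.1 ± 4.10 CPM, adjusted p = 2.61e-06). Its partner Itgb1 rose by 0.35 (adjusted p = 0.0435), a call lost with the replicate number as a block (adjusted p = 0.0653). Itga9, whose α9β1 dimer also binds VCAM-1, rose by 1.66 (57.5 ± 15.5 to 182 ± 24.0 CPM, adjusted p = 8.23e-05), and Itgb7, the β chain of α4β7, rose by 3.50 from a low level (0.195 ± 0.121 to 2.27 ± 1.23 CPM, adjusted p = 0.000725). Itgax, the αX chain of another β2 integrin, fell by 1.46 (25.2 ± 15.8 to 9.18 ± 6.22 CPM, adjusted p = 0.0311), with overlapping groups, so the chains that receive ICAM-1 and those that receive VCAM-1 each moved in both directions. Among the selectins, Selp had 0 counts in every vehicle library and was at least 9.65-fold higher in LPS, with 14.1% of its exonic bases under a gene on the opposite strand. Sele had 0 counts in vehicle and 3 to 6 counts per LPS library and was not tested.

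PSGL-1 binds selectins only once it carries certain sugars and sulphates. Of the 13 genes for these steps 4 rose, 6 fell and 3 did not pass, with a median log2 fold change of -0.19. The share called was 76.9%, against 64.1% of all tested genes. Galnt3, which starts O-glycan chains, rose by 1.67 (adjusted p = 0.00103), and Tpst1, a tyrosylprotein sulphotransferase, by 1.19 (adjusted p = 0.00142). C1galt1, which makes the core 1 O-glycan, fell by 1.27 (adjusted p = 3.05e-05) and B3gnt3 fell by 0.83 (adjusted p = 0.0111). The α1,3-fucosyltransferase genes Fut7 and Fut4 were under the expression limit for named genes and were picked after their values were seen. Fut7 went from 3.95 ± 0.863 to 0.230 ± 0.226 CPM (log2 fold change -4.14, adjusted p = 0.000231) and Fut4 from 5.66 ± 0.993 to 0.390 ± 0.265 CPM (-3.88, adjusted p = 2.22e-05).

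Proteins that tie the cytoplasmic tails of these molecules to actin or to junctions were read next. Of 21 linker genes 8 rose, 3 fell and 10 did not pass, which is 52.4% called, against 64.1% of all tested genes. Tjp1 (ZO-1, a scaffold that binds JAM-A) rose by 2.29 (66.9 ± 9.28 to 327 ± 65.5 CPM, adjusted p = 3.12e-06), beside the rise of F11r. Ezr (ezrin, which links CD44, ICAMs and PSGL-1 to actin) rose by 1.84 (adjusted p = 6.16e-06). Actn1 (α-actinin 1) fell by 1.76 (163 ± 12.8 to 48.1 ± 17.9 CPM, adjusted p = 8.83e-05), with 8.15% of its exonic bases under a gene on the opposite strand.

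Several of the proteins can be cut from the surface. Of 16 genes for sheddases, the γ-secretase that cuts CD44 further, and their inhibitors and cofactors, 7 rose, 4 fell and 5 did not pass. The share called was 68.8%, against 64.1% of all tested genes, and the median log2 fold change was 1.05, against -0.11. Timp1 rose by 7.93 (0.434 ± 0.170 to 107 ± 38.1 CPM, adjusted p = 2.92e-07) and Timp2 fell by 3.80 (472 ± 55.0 to 34.0 ± 5.50 CPM, adjusted p = 1.75e-07). Mmp14, a membrane metalloproteinase that cuts CD44, rose by 2.55 (80.4 ± 64.6 to 470 ± 82.6 CPM, adjusted p = 0.00311), and Rhbdf2 (iRhom2, which escorts ADAM17) by 2.53 (adjusted p = 1.03e-05). The 4 ADAM genes of the list, picked after their values were seen, did not move together. Adam8 rose by 1.63 (1127 ± 95.4 to 3477 ± 368 CPM, adjusted p = 9.85e-06), Adam10 fell by 1.00 (adjusted p = 6.61e-05), Adam17 fell by 0.58 (adjusted p = 0.00128) and Adam15 was at 204 and 224 CPM (adjusted p = 0.671).

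Genes that make, bind or break hyaluronan, the ligand of CD44, also moved in both directions. Of 16 genes 10 were tested, and 4 rose and 4 fell (80% of those tested, against 64.1% of all tested genes). The other 6 had too few counts, among them Has2 and the hyaluronan receptor gene Lyve1 with at most 3 in any library. Cemip2, a transmembrane hyaluronan-degrading protein, rose by 4.56 (24.6 ± 2.89 to 580 ± 31.3 CPM, adjusted p = 3.75e-08). Stab1, a scavenger receptor that takes up hyaluronan, fell by 2.24 (2239 ± 288 to 475 ± 169 CPM, adjusted p = 7.39e-05), and Hmmr, another hyaluronan receptor, fell by 2.25 (adjusted p = 0.00135). Habp4, named for hyaluronan binding, fell by 1.49 (adjusted p = 0.000129). Hyal1 was called higher (adjusted p = 0.0429), a call lost with the block (adjusted p = 0.0778). The other called genes of the list were picked after their values were seen. Has1, a hyaluronan synthase gene below the naming limit, rose by 5.965 (0 to 9 vehicle and 36 to 175 LPS counts, adjusted p = 0.000248). Stab2 fell by 5.566 (23 to 87 and 0 to 2 counts, adjusted p = 0.000268), and Ugdh rose by 0.906 (adjusted p = 0.000561). Has1 passed the low-count filter only through LPS libraries, and Stab2 only through vehicle libraries.

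Other adhesion molecules outside the 8 were called about as often as all genes (63.6% of 22 tested, 6 higher and 8 lower), with a median of -0.63. Cd34, a sialomucin, fell by 6.55 (21.4 ± 7.998 to 0.210 ± 0.221 CPM, adjusted p = 8.4e-06) and Cadm1 fell by 4.07 (408 ± 77.9 to 24.3 ± 4.68 CPM, adjusted p = 3.94e-07). Pvr, the poliovirus receptor homologue, rose by 3.17 (12.9 ± 1.15 to 116 ± 35.2 CPM, adjusted p = 1.38e-06). Cd9, a tetraspanin that groups ICAM-1 and VCAM-1 at the surface, fell by 2.27 (adjusted p = 8.65e-06), with 10.7% of its exonic bases under an opposite-strand gene. Icam4 had 0 counts in every library and Icam5 at most 12. Opposite-strand genes cover 100% of the exonic bases of Icam4 and 30.8% of those of Icam5. The strand setting of the counting is not stated, so these counts are uncertain.

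**Figure D5:**
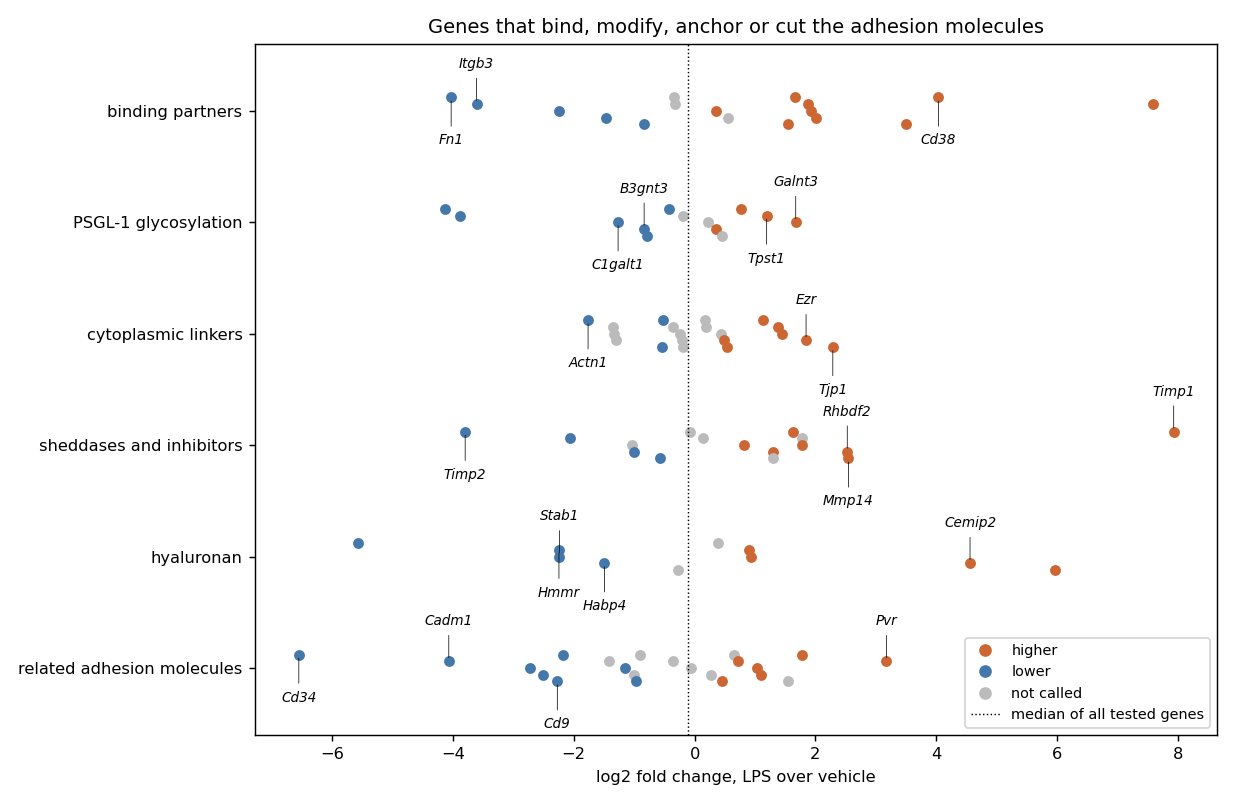
Log2 fold change of tested genes in 6 lists of genes that bind, modify, anchor or cut the adhesion molecules or are related to them, coloured by call, with genes named by rule labelled and a dotted line at the median of all tested genes, -0.11. Every list holds genes called in both directions.

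The gene whose level over the 8 libraries was most like that of each member is given as a description, with Pearson's r over log2 CPM among well-expressed genes. For the genes that rose these were Kdm6b for Vcam1 (r = 0.995), Vmp1 for Pecam1 (0.992), Ubr2 for Alcam (0.994) and Dync1i2 for F11r (0.999). Wdr43 was closest to Icam2 (0.979). For the genes that did not pass the likeness was lower, with Sh3bp5l for Icam1 (0.961), Nubp2 for Selplg (0.941) and Fabp4 for Cd44 (0.898). The 8 libraries form 2 groups, so a gene with a group difference finds many genes that share it.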

How the data were processed

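RNA of primary microglia was sequenced in 4 vehicle and 4 LPS libraries. The authors deposited raw counts per Ensembl gene, the uniquely aligned reads assigned by HTSeqGenie after GSNAP alignment to GRCm38, with no normalization. All 8 columns were mapped to a sample. Kit and sequencer are named differently by the labels and the paper. The strand setting and annotation release are not given in the sources used here. Symbols, positions and exon lengths came from GENCODE vM21, which named 52489 of 52636 identifiers, and those without a symbol held 0.00512% of counts.

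Counts were fitted with edgeR 4.0.16 in R 4.3.3 (filterByExpr requiring 10 counts in enough libraries and also 15 in total, TMM, glmQLFit and glmQLFTest, two-sided), with Benjamini-Hochberg adjustment over all 13847 tested genes. The standard error was worked out as the absolute log2 fold change divided by the square root of the F statistic of that test. Intervals of 95% use this standard error and the total degrees of freedom of the fit, prior and residual together. A gene with few counts in 1 group could pass the filter through the other group alone, so its call is not independent of the filter. The shares called in the lists are therefore descriptions. CPM were computed with TMM-scaled library sizes, and log2 CPM with a prior count of 2. A level of 3 counts was the floor, at 0.0952 to 0.179 CPM per library, and limits from counts cover counting error only. Exact permutation tests used scipy 1.17.1 in Python 3.11.15. Named genes were all 8 members, in each list up to 4 called genes with the largest absolute log2 fold change at a mean log2 CPM of at least 1, textbook ligands at the floor, and per member the gene most alike (mean log2 CPM of at least 3). Some genes that the rule names are not reported here. The members and lists were chosen with earlier results of these data known.

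Same-numbered libraries deviated together from their group means over 8010 genes (r = 0.373, 0.196, 0.171 and 0.108 for numbers 1 to 4), although LPS replicate 4 was closer to vehicle replicate 2 (r = 0.146). The numbers were treated as pairs on the evidence of the data alone, and a fit with the replicate block was run beside the one without it. Alternatives also covered DESeq2 1.42.0, other scalings, no low-count filter, a stricter threshold and leaving out each library. Promoters came from RefSeq on GRCm38.p6.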

Additional observations from a re-analysis of the deposited data

Results flagged for a closer look

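Groups of 4 libraries were screened for a single library whose gap to the nearest other exceeded Dixon's critical share of the group's range, over 64 groups. Chance marks about 1 in 20 groups. Selplg was at 132.8 CPM in vehicle replicate 3, against 66.3 to 71.5 CPM in the other vehicle libraries. Cd38 was at 966.6 CPM in LPS replicate 1, against 676 to 698 CPM. Actn1 was at 74.6 CPM in LPS replicate 1, against 35.3 to 41.7 CPM. Fn1 was at 1127 CPM in vehicle replicate 1, against 197 to 324 CPM. Pvr was at 168.5 CPM in LPS replicate 3, against 95.2 to 105 CPM, and Rhbdf2 was at 223.5 CPM in that library, against 404 to 417 CPM. The cause of these values was not tested.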

How the results depend on the processing

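The calls of the 8 members were unchanged (4 higher and 1 lower) under RLE and upper quartile scaling, DESeq2, no filter, a minimum of 10 counts in every library, the stricter threshold of 0.01 and without each library in turn. With the replicate block 4 members were higher and 1 lower, and 9044 genes were called against 8877. Under library totals, chosen after seeing the data, 3 members were lower and 17 linker genes called, Icam1 reversed to -0.34, Cd44 was called at -0.77 and Selplg at -0.95. In that fit 10445 of the 13847 tested genes were called and 8457 were lower, against 8877 and 4686 with TMM. Of all calls 19.0% were higher against 47.2% with TMM (39.6% with upper quartile scaling, which moved the median by -0.16). At the threshold of 0.01, 5 genes of PSGL-1 glycosylation were called, and 7019 over all tested genes, against 8877 at 0.05. With 1 library left out Cd44 ran from -0.11 to 0.05 (0.05 without vehicle replicate 1) and Selplg from -0.37 to 0.07 (0.07 without vehicle replicate 3). Leaving out each library gave 8031 to 9314 called genes. Sign flips over the 4 numbered pairs (replicate block) called 0 member pairs, since their smallest p is 0.125, and with 1 library left out the permutation test cannot go below 0.0571. With the longest transcript 5 members kept their vehicle rank. Vcam1 and Icam2 rest on few reads per library.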
